A study of Mus musculus with 12 samples.

Results

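The nuclear-encoded subunits of the 5 complexes of oxidative phosphorylation were followed at the RNA level in mouse hippocampus, with and without the protein NONO. Members were taken by gene symbol: Nduf with a, b, c, s, v or ab and a number for complex I, Sdha to Sdhd for complex II, Uqcr and Cyc1 for complex III, Cox4 to Cox8 followed by a, b or c for complex IV, and Atp5a to Atp5o for complex V. The rule found 81 of 23329 gene symbols: 37 of complex I, 4 of complex II, 9 of complex III, 16 of complex IV and 15 of complex V. Of these, 78 passed the filter on low counts. The others, Cox7b2, Cox8b and Cox8c, are complex IV isoforms known from other tissues and held at most 4, 9 and 0 counts in a library. Symbols do not always follow the protein. Ndufa4 is counted here with complex I by its name, although the protein is known as a subunit of complex IV. Cox7a2l is counted with complex IV, although its product is described as a factor joining complexes III and IV. Whether it does so in these mice was not examined. The rule misses Cox4i1 and Usmg5, which are given separately. Subunits encoded by the mitochondrial genome were not analysed here.

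Hippocampal polyadenylated RNA of adult C57BL/6 mice was sequenced in 12 libraries. There are 4 groups of 3 libraries: wild type (WT) at CT10, NONO knockout (KO) at CT10, WT at CT22 and KO at CT22, where CT is an abbreviation left unexplained by the submitters. The sources used here give neither the way the knockout was made nor whether each library is a separate animal. The p-values therefore measure the spread between these libraries, which may be technical. Library totals ran from 4435596 to 10911031 counts. NONO itself is a nuclear RNA- and DNA-binding protein found in paraspeckles, and its transcript checked the labels: Nono stood at 150.0 to 169 CPM (scaled counts relative to library size) in the 6 WT libraries and at 0 to 0.672 CPM in the 6 KO libraries.

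Oxidative phosphorylation makes most of the ATP of a neuron. Complex I takes electrons from NADH and complex II from succinate, complex III passes them on to cytochrome c, complex IV hands them to oxygen, and complex V uses the proton gradient that results to make ATP. Most subunits are small proteins encoded in the nucleus, translated in the cytosol and imported. The nuclear respiratory factor NRF1 and ETS factors are known to drive many of their promoters, and their transcripts are known to be abundant in neurons.

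Some libraries stood apart before any comparison. By the clock output genes Dbp, Nr1d1 and Nr1d2, KO CT10 replicate 3 lay with the CT22 libraries and KO CT22 replicate 1 with the CT10 libraries. Dbp was at 93.7, 106 and 33.6 CPM in the 3 KO CT10 libraries and at 90.9, 32.3 and 32.9 CPM in the 3 KO CT22 libraries, against 80.6, 70.5 and 95 CPM in WT CT10 and 43.2, 50.5 and 59.6 CPM in WT CT22. Arntl, with means of 27.3 CPM in WT CT10 and 34.9 CPM in WT CT22, was at 25.95, 28.6 and 39.5 CPM in KO CT10. In KO CT22 it was at 27.65, 40.3 and 38.2 CPM. Per2 did not set KO CT10 replicate 3 apart, at 50.1, 44.5 and 48.6 CPM in KO CT10. In KO CT22 Per2 was at 62.6, 48.2 and 48.1 CPM. By Dbp, Nr1d1 and Nr1d2 both libraries go against their labels. The members' medians and their counts at an unadjusted p under 0.05 are given with and without these libraries. The 10 markers of hippocampal excitatory neurons were all measured, with a summed level of 722 to 1106 CPM. Choroid plexus markers (11 of 11 measured, none at 0) summed to 336 to 2071 CPM in WT CT10, 370.4 to 4826 CPM in KO CT10, 396 to 2165 CPM in WT CT22 and 230.1 to 5239 CPM in KO CT22, so that single libraries differed widely in these transcripts.

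Per unit of transcript length, as the deposited TPM values (transcript abundance relative to all transcripts of a library), complex V and complex IV subunits had the highest levels and complex II the lowest. The median over the tested members was 634 TPM for complex V, 532 TPM for complex IV, 383 TPM for complex III, 283 TPM for complex I and 242 TPM for complex II. Atp5b, the catalytic beta subunit of ATP synthase, was the most abundant member at 1850.0 ± 90.9 TPM (SD, n = 12), followed by Cox8a at 1688 ± 77.5 TPM and Cox6a1 at 1403 ± 116 TPM. The ranges of Atp5b and Cox8a over the 12 libraries, 1664 to 1976 and 1512 to 1798 TPM, overlapped. Within complex I, Ndufa4 was at 1004 ± 98.6 TPM, while the lowest member, Ndufa11, a subunit of the membrane arm, was at 70.4 ± 5.75 TPM. The electron-carrying core subunits Ndufv1 and Ndufs1 were in between, Ndufv1 at 279 ± 19.4 TPM and Ndufs1 at 156 ± 8.75 TPM.

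The flavoprotein Sdha of complex II was at 411 ± 18.1 TPM, above the iron-sulfur subunit Sdhb at 276 ± 16.9 TPM and the membrane anchors Sdhc at 208 ± 13.2 TPM and Sdhd at 189 ± 9.61 TPM. The ranges of Sdha and Sdhb, 368 to 437 and 246 to 309 TPM, did not overlap. In complex III the hinge protein Uqcrh was highest at 801 ± 82.2 TPM and the Rieske iron-sulfur protein Uqcrfs1 lowest at 232 ± 17.3 TPM. The lowest tested members were the muscle-type Cox6a2 at 18.8 ± 4.45 TPM, the testis-type Cox6b2 at 8 ± 3.69 TPM and the heart-type Cox7a1 at 7.93 ± 2.97 TPM. Transcript length and the authors' division of reads among similar transcripts both enter these values.

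**Figure D1:**
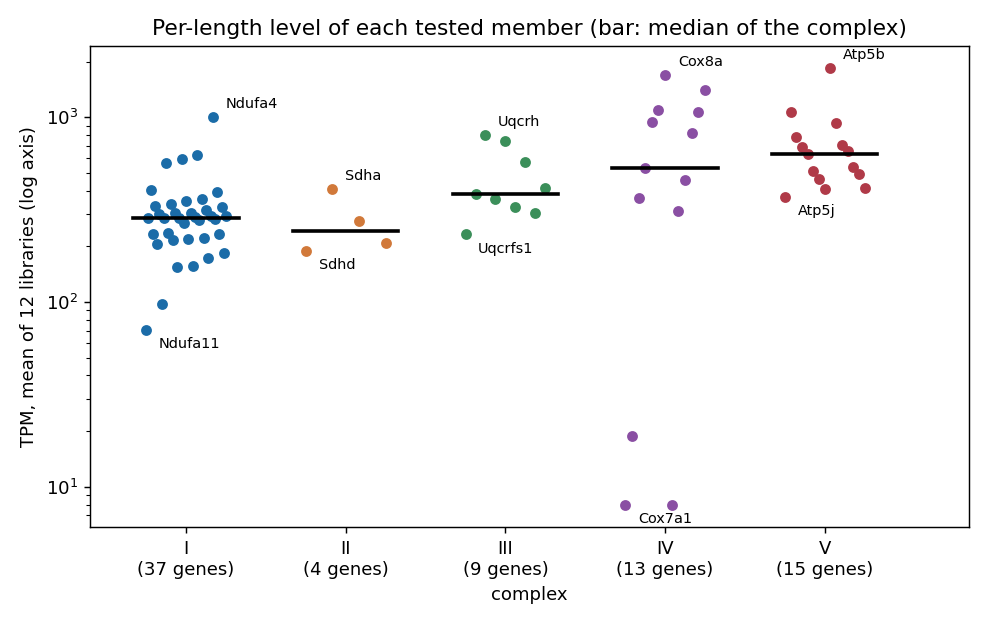
Mean TPM over the 12 libraries (log axis) of each of the 78 tested members, by complex, with the median of the complex as a bar and the highest and lowest member named. Medians run from 242 TPM in complex II to 634 TPM in complex V, and 3 complex IV isoforms lie below 20 TPM.

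The promoters show one feature that the choice by symbol did not use. RefSeq windows of 250 bases before to 50 after the gene start (GRCm38.p6, the same primary assembly as mm10) were found for 68 members, 73 windows in all. The NRF1 motif, a palindromic core with 1 free base, searched on both strands, was in 24.7% of these windows and in 6.38% of all 21263 protein-coding windows. It was found at 17 members: 7 of complex I, 2 of complex II, 1 each of complexes III and IV, and 6 of complex V. Its strict palindromic form, which the first search includes, was in 6.85% of member windows and 1.33% of all windows. The ETS motif CCGGAAG was in 21.9% against 11.6%, the YY1 motif in 5.48% against 1.38%, and the TATA box TATAAA in 8 of the 73 windows against 12.6% of all. A match is a description of the letters in the window and not a site of binding. The windows compared were those of all protein-coding genes, not chosen by expression in these libraries or matched for base composition. Whether the members differ from other expressed genes in these motifs was not examined. The following 100-base stretches upstream of the gene start, from the RefSeq table, show the motif in a member of complexes I, II, IV and V, with matches in capitals, read 5′ to 3′ on the gene's strand. In Ndufa8 the match is on the opposite strand and is shown as it reads on the gene's strand. They lie at chr2:36049339-36049438 for Ndufa8, chr13:74350241-74350340 for Sdha, chr5:115349066-115349165 for Cox6a1 and chr11:115420006-115420105 for Atp5h, all on the minus strand.
Ndufa8: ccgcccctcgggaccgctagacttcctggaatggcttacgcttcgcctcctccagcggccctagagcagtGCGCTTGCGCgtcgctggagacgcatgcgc
Sdha: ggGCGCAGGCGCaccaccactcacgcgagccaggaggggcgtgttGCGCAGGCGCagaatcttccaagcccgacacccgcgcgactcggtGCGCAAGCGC
Cox6a1: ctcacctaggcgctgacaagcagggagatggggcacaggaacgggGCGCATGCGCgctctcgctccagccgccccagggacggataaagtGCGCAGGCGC
Atp5h: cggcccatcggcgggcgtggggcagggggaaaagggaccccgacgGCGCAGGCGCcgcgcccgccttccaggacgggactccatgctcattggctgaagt
Sdha, the flavoprotein that oxidises succinate, carries 3 copies of the motif in its stretch and Cox6a1 carries 2. Members with the motif had a median KO against WT log2 difference of −0.21 at CT22, and members with a window but without the motif one of −0.20.

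Averaged over both CT labels, the subunit transcripts lay slightly below WT in KO, in every complex and by a few percent each, and no member passed the test. The difference was negative in 73 of the 78 tested members, with a median log2 difference of −0.09. Over all 14131 genes tested the difference was negative in 48.2% of genes, with a median of 0.0051. None of the 78 members passed an adjusted p of 0.05 in edgeR's quasi-likelihood test, where 0.0212% of all genes did, and none did in DESeq2. At an unadjusted p under 0.05, 9 members lay lower and 0 higher in edgeR, where 2.89% of all genes lay lower and 3.46% higher. That count of 9 depends on single libraries: it was 2 when KO CT10 replicate 1 was left out, 3 for WT CT22 replicate 2 or 3, 4 for KO CT10 replicate 3, KO CT22 replicate 1 or WT CT10 replicate 1 or 3, and 5 for WT CT10 replicate 2. It was 17 when WT CT22 replicate 1 was left out and 31 for KO CT10 replicate 2. For fits with libraries left out, the share of all genes at that p was not computed. Whether these shifts are particular to the members is therefore not known. By complex the median was −0.10 for complex I (36 of 37 negative), −0.09 for complex II (4 of 4), −0.07 for complex III (9 of 9), −0.10 for complex IV (9 of 13) and −0.07 for complex V (15 of 15). In no member did all KO libraries lie below all WT libraries within both CT labels, where 0.446% of all genes did. By the authors' deposited table, 73 of 78 members had a negative log2 ratio, with a median of −0.0938, 0 had an adjusted p (fdr) under 0.05, where 28 genes (0.186% of that table) did, and the lowest of a member was 0.3773 for Ndufa1. Without KO CT10 replicate 3 and KO CT22 replicate 1 the median was −0.04, with 67 of 78 members negative and 4 at an unadjusted p under 0.05, and without KO CT10 replicate 2 the median was −0.14.

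The members with the smallest unadjusted p were accessory subunits of complex I. Ndufa1 (chromosome X, 37187589 to 37191238, minus strand), a small membrane subunit needed for complex assembly, was at 49.6, 54 and 52.4 CPM in WT CT10 against 43.9, 50.4 and 41.3 CPM in KO CT10. At CT22 it was at 45.8, 56.6 and 61.3 CPM in WT against 44.5, 42.4 and 45.1 CPM in KO. The KO libraries lay below all WT libraries at CT22 and overlapped them at CT10, where KO CT10 replicate 2 lay among the WT values. Over both labels the log2 difference was −0.26 (SE 0.08, edgeR adjusted p = 0.577). Like Nono, Ndufa1, Ndufb11 and Cox7b lie on chromosome X. Ndufb3, another membrane-arm subunit, was at 68.9, 59.2 and 59.5 CPM in WT CT10 against 55.4, 64.8 and 48.5 CPM in KO CT10, and at 58.6, 61.4 and 63.4 against 49.4, 46.4 and 52.9 CPM at CT22. Its groups overlapped at CT10 and not at CT22 (log2 difference over both labels −0.23, SE 0.08, edgeR adjusted p = 0.635). The third of complex I by p was Ndufa7 at −0.21 (SE 0.09, edgeR adjusted p = 0.752).

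In the other complexes the smallest p belonged to subunits of different roles. Cox7a2, a small nuclear subunit of complex IV and the form used outside muscle, had at CT10 levels of 139, 139 and 140.3 CPM in WT against 115, 147 and 121 in KO, and at CT22 of 119, 140.3 and 137 CPM in WT against 106, 114 and 116 in KO. KO CT10 replicate 2 was the highest of the 12, and the CT22 groups did not overlap (log2 difference over both labels −0.18, SE 0.07, edgeR adjusted p = 0.703). The Rieske protein gene Uqcrfs1 of complex III differed by −0.16 (SE 0.07, edgeR adjusted p = 0.751), the complex II anchor Sdhc by −0.13 (SE 0.06, adjusted p = 0.773) and Atp5e, the epsilon subunit of the ATP synthase stalk, by −0.20 (SE 0.11, adjusted p = 0.81). Uqcrfs1, itself a core subunit, had an unadjusted p of 0.0364 in edgeR. For other core and catalytic subunits the log2 differences were −0.05 for Ndufs1, −0.03 for Ndufv1, −0.08 for Sdha and −0.10 for Sdhb. They were −0.04 for the complex III core protein Uqcrc1 and −0.02 for cytochrome c1 (Cyc1). In complex V they were −0.02 for the ATP synthase alpha subunit Atp5a1 and −0.09 for Atp5b. None of these others had an unadjusted p under 0.05. The sign of Ndufv1, Uqcrc1, Cyc1 and Atp5a1 changed when single libraries were left out. The positive values were those of Cox5a (0.04), Cox6a2 (0.23), Cox6b2 (0.09), Cox7a1 (0.36) and Ndufc1 (0.02), where Cox6b2 and Cox7a1 rest on 3 to 28 counts per library.

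Taken by CT label, the members lay below WT in KO at CT22 and near WT at CT10, and the test of the difference between the labels found no gene past the threshold. At CT10 the median log2 difference was 0.02 over the 78 members, 29 of them negative, where 48.5% of all genes were negative. At CT22 the median was −0.20 and 76 of the 78 were negative, where 49.4% of all genes were negative with a median of 0.0036. No member passed at either label in edgeR, where 0.00708% of all genes passed at CT10 and 0.0142% at CT22, and none passed in DESeq2. At an unadjusted p under 0.05 there were 0 members at CT10, where 1.65% of all genes were lower and 1.44% higher, and at CT22 19 members lower and 0 higher, where 4.69% of all genes were lower and 6.23% higher. The smallest adjusted p of a member at CT22 was 0.377. The 19 members at CT22 became 4 when WT CT22 replicate 3 was left out, 9 for KO CT22 replicate 1 and 11 for WT CT22 replicate 2. They became 29 when KO CT10 replicate 2 was left out, 30 for KO CT22 replicate 2 and 49 for WT CT22 replicate 1. With neither KO CT10 replicate 3 nor KO CT22 replicate 1 they were 7. At CT10 the count was 7 without KO CT10 replicate 2. Here too the share of all genes at that p was not computed with libraries left out. All KO libraries lay below all WT libraries at CT22 in 15 members, where 6.49% of all genes did, and above them in 0 members, where 7.25% did. At CT10 they lay below in 1 member, Sdhc, and above in 2, Cox6a2 and Cox7a2l, where 5.43% and 4.9% of all genes did.

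The test of the difference between both KO effects found no member past the threshold in edgeR (smallest adjusted p 0.737) or DESeq2, and 0.0% of all genes. The difference was negative in 73 of 78 members and in 50.1% of all genes, with a members' median of −0.20, and 8 members had an unadjusted p under 0.05, where 2.55% of all genes were lower and 3.55% higher at that p. These 8 became 1 when KO CT10 replicate 2 was left out, 2 for WT CT22 replicate 3, 4 for KO CT22 replicate 1 or WT CT10 replicate 1 or 2, and 5 for WT CT22 replicate 2. They became 15 when KO CT22 replicate 2 was left out, 18 for KO CT10 replicate 1 and 24 for WT CT22 replicate 1. With neither KO CT10 replicate 3 nor KO CT22 replicate 1 they were 4. Again no share of all genes at that p was computed with libraries left out. Without KO CT10 replicate 3 and KO CT22 replicate 1 the medians were 0.06 at CT10, −0.16 at CT22 and −0.22 for the difference, with 73 of 78 members negative at CT22. The value at CT10 rests on single libraries: the median there was −0.08 without KO CT10 replicate 2 and 0.08 without KO CT10 replicate 1. Without KO CT10 replicate 2 the median difference between the labels was −0.10. Without WT CT22 replicate 3 the median at CT22 was −0.13.

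At CT10 the core and catalytic subunits of complexes I, II, III and V and the accessory complex IV subunits Cox5a and Cox6c lay on both sides of 0. The log2 differences there were 0.06 for Ndufs1, 0.11 for Ndufv1, 0.01 for Sdha, 0.01 for Sdhb, 0.09 for Uqcrc1, −0.12 for Uqcrfs1, 0.05 for Cyc1, 0.14 for Cox5a, −0.05 for Cox6c, 0.06 for Atp5a1 and 0.03 for Atp5b. None had an unadjusted p under 0.05. Sdhc, where the KO libraries all lay lower, was at 99.3, 94.9 and 101 CPM in WT CT10 against 91.5, 88.5 and 91.1 CPM in KO CT10 (−0.12, SE 0.09). Cox7a2l, where they all lay higher, was at 141, 139 and 140.0 against 147, 168 and 147 CPM (0.13, SE 0.12). KO CT10 replicate 2 was the highest of the 3 KO CT10 libraries in Atp5b, Sdhb and Uqcrh.

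**Figure D2:**
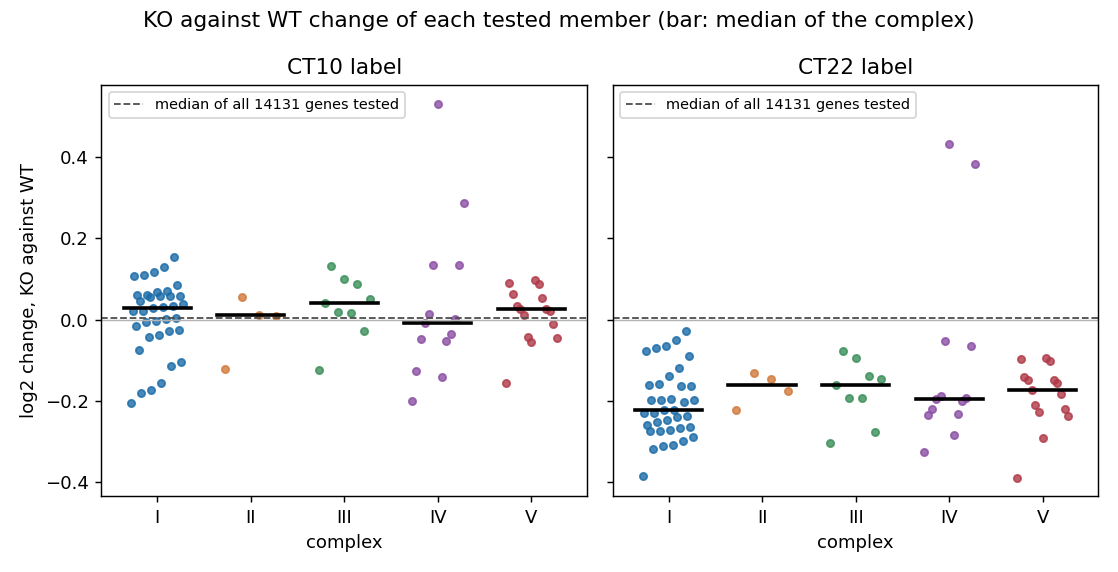
KO against WT log2 change of each tested member at the labels CT10 and CT22, by complex (points), with the median of the complex (bar) and of all genes tested (dashed line). At CT10 the medians lie between −0.01 and 0.04, and at CT22 between −0.22 and −0.16, with Cox6b2 and Cox7a1 as the positive values.

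At CT22 the complex I median was −0.22 and all 37 members were negative. Ndufa12, an accessory subunit of the matrix arm, had the smallest p of the members. It was at 73, 80.6 and 86.5 CPM in WT CT22 and at 56.8, 63.2 and 64.3 CPM in KO CT22, so each KO library lay below each WT library (log2 difference −0.38, SE 0.11, edgeR adjusted p = 0.377). At CT10 it was at 66.7, 73.7 and 80 CPM in WT against 66.1, 86.2 and 74.4 CPM in KO, and the groups overlapped. Ndufa6, a matrix-arm subunit, was at 59.6, 63.7 and 66.2 CPM in WT CT22 against 46.9, 56.5 and 50.5 CPM in KO CT22, with no overlap (log2 difference −0.31, SE 0.10, edgeR adjusted p = 0.397). Ndufb11, a membrane-arm subunit, was at 89.8, 97.9 and 104 against 76.8, 84.9 and 82.8 CPM, again without overlap (−0.26, SE 0.09, edgeR adjusted p = 0.397). Ndufa12, Ndufa6 and Ndufb11 also had the smallest p for the difference between both labels, −0.42, −0.37 and −0.32 on the log2 scale (edgeR adjusted p = 0.737 each).

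The core subunits Ndufs1 and Ndufv1 overlapped between the genotypes, while the core subunit Ndufs8 did not (−0.20, SE 0.10). Ndufs1, which carries iron-sulfur clusters, was at 160.3, 175 and 179 CPM in WT CT22 against 162, 140.1 and 156 CPM in KO CT22, where KO CT22 replicate 1 lay within the WT range (log2 difference −0.16, SE 0.08). Ndufv1, which binds NADH, was at 159, 173 and 208 against 155, 173 and 154 CPM and overlapped (−0.16, SE 0.10). The member of complex I nearest to WT at CT22 was Ndufb4 (−0.03).

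Complex II and complex III had a median of −0.16 each at CT22, with 4 of 4 and 9 of 9 members negative. Sdhb, which passes electrons from the flavin to quinone, was at 116, 118 and 124 CPM in WT CT22 against 96.6, 106 and 105 CPM in KO CT22, without overlap (log2 difference −0.22, SE 0.09, edgeR adjusted p = 0.423). Sdha was at 449.6, 496 and 524 against 444, 405 and 451 CPM, where the highest KO library lay just above the lowest WT library (−0.18, SE 0.08, edgeR adjusted p = 0.453). In complex III, Uqcrh was at 153, 174 and 188 against 119, 169 and 139.8 CPM and overlapped, with KO CT22 replicate 2 inside the WT range (−0.28, SE 0.13, edgeR adjusted p = 0.458). Uqcr11, a small subunit, differed by −0.30 (SE 0.15) and Uqcrfs1 by −0.19 (SE 0.10). Cyc1 was at 169, 167 and 168 CPM in WT against 161, 145 and 165 CPM in KO and did not overlap, although the difference was small (−0.10, SE 0.08, edgeR adjusted p = 0.674).

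In complex IV, with a median of −0.20 and 11 of 13 members negative at CT22, Cox6b1 had the smallest p. This subunit faces the cytochrome c side and was at 188, 212 and 237 CPM in WT CT22 against 155, 185 and 169 CPM in KO CT22, without overlap (log2 difference −0.33, SE 0.12, edgeR adjusted p = 0.405). Cox6a1 was at 252, 292 and 330.2 against 218, 272 and 229 CPM and overlapped, with KO CT22 replicate 2 above WT CT22 replicate 1 (−0.28, SE 0.11, edgeR adjusted p = 0.412). Cox6c (−0.23) and Cox7a2 (−0.23) did not overlap at CT22, and Cox8a (−0.19) did. Cox5a, whose protein sits on the matrix side, was at 121, 138 and 155 against 118, 147 and 135 CPM (−0.05, SE 0.12) and overlapped. The abundant Cox4i1, which the symbol rule misses, was at 416, 460.4 and 515 CPM in WT CT22 against 361, 413 and 413 CPM in KO CT22, also without overlap.

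Complex V had a median of −0.17 at CT22 and 15 of 15 members negative. Atp5b was at 1349, 1437 and 1539 CPM in WT CT22 against 1219, 1193 and 1302 CPM in KO CT22, so the KO libraries all lay lower (log2 difference −0.22, SE 0.08, edgeR adjusted p = 0.405). At CT10 it was at 1358, 1322 and 1393 against 1295, 1502 and 1374 CPM and overlapped. Atp5a1, its partner in the catalytic head, was at 967, 1040.0 and 1074 against 961, 924 and 984 CPM at CT22 and overlapped (−0.10, SE 0.07). Atp5e had the most negative value of all members at CT22, −0.39 (SE 0.16, edgeR adjusted p = 0.423), with 71.8, 86.6 and 96.9 CPM in WT against 57.8, 73.5 and 64.9 CPM in KO. WT CT22 replicate 1 lay below KO CT22 replicate 2, so its groups overlapped. Atp5h, the d subunit of the peripheral stalk, was at 165, 172 and 194 against 140.0, 159 and 152 CPM without overlap (−0.24, SE 0.11, edgeR adjusted p = 0.443).

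Between the CT labels the median difference had opposite signs in WT and KO. These contrasts share libraries with those above and are no separate evidence. In WT the median log2 difference of CT22 against CT10 was 0.08, with 20 of 78 members negative, where 50% of all genes were. In 7 members every CT22 library lay above every CT10 library, where 7.69% of all genes did and 8.54% lay below. In KO the median was −0.14, with 73 of 78 negative, where 49.9% of all genes were. In 11 members every CT22 library lay below every CT10 library, where 3.66% of all genes did and 4.3% lay above. No member passed in edgeR in either genotype (0.0% of all genes in each) or in DESeq2. At an unadjusted p under 0.05, 1 member was higher in WT (Ndufs7, 0.29), where 3.13% of all genes were higher and 3.63% lower. In KO 6 were lower, where 1.34% of all genes were lower and 1.83% higher: Ndufa12, Ndufs1, Ndufs5, Uqcrc2, Ndufs4 and Sdhd, at −0.17 to −0.36. Cox6b2 was higher in KO CT22 than in KO CT10 at that p (0.97, on 4 to 28 counts per library). The WT value rests on WT CT22 replicate 3, without which the median was 0.0050, and the KO value on KO CT10 replicate 2, without which it was −0.04. Without KO CT10 replicate 3 and KO CT22 replicate 1 the KO median was −0.14, with 67 of 78 members negative and 4 at an unadjusted p under 0.05. With 1 library left out, the members at that p in either direction, 7 in KO and 1 in WT, ranged in KO from 0 without KO CT10 replicate 2 to 23 without KO CT10 replicate 1, and in WT from 0 to 7 without WT CT22 replicate 1. No share of all genes at that p stands beside these left-out counts.

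The members varied together from library to library. Averaged over the members, the level in a library relative to the mean of all 12, on a log2(CPM + 0.5) scale, was 0.21 in WT CT22 replicate 3 and 0.20 in KO CT10 replicate 2. It was −0.20 in KO CT22 replicate 1 and between −0.08 and 0.08 in the other 9 libraries. One KO library was thus close to the highest WT library, and the pooled SD within groups was 0.115. Of the 78 members, 34 were highest in KO CT10 replicate 2 and 34 in WT CT22 replicate 3, while 41 were lowest in KO CT22 replicate 1. Across the 12 libraries the median correlation of a member with the mean of the other members was 0.83, and 70 of 78 lay over 0.5. By complex this median was lowest in complex II, at 0.589, and between 0.816 and 0.838 in the others. This is a description over libraries that share their scaling. The members with the lowest correlation were Cox7a1 (−0.013), Cox6b2 (0.034), Uqcrc2 (0.072), Ndufs5 (0.108) and Cox6a2 (0.159). Atp5e (0.975), Ndufa5 and Cox5b (0.956 each) followed the others most closely. Uqcrc2, a core protein of complex III, was at 222, 231 and 208 CPM in WT CT22, and so lowest of the 3 in replicate 3, the library where the mean of the members was highest.

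**Figure D3:**
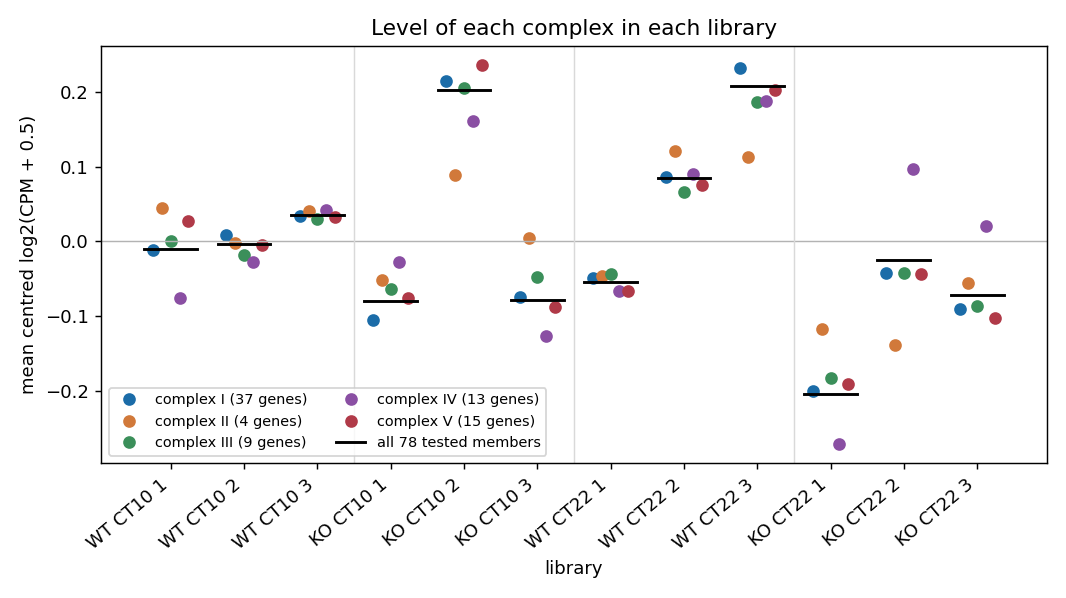
Mean centred log2(CPM + 0.5) of the tested members of each complex (points) and of all 78 (bar) in each of the 12 libraries. For all 78, KO CT10 replicate 2 and WT CT22 replicate 3 lie highest at 0.20 and 0.21 and KO CT22 replicate 1 lowest at −0.20. Complex II is highest in WT CT22 replicate 2 (0.12) and lowest in KO CT22 replicate 2 (−0.14).

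Transcript length moved with these values. Of the tested members, 34 had transcripts under 600 nt, 21 of 600 to 1000 nt and 23 over 1000 nt, and their median log2 differences at CT22 were −0.24, −0.18 and −0.16. Genes outside the list had at CT22 a median of −0.16 under 1 kb (682 of 871 negative), −0.09 from 1 to 2 kb, −0.01 from 2 to 4 kb and 0.13 over 4 kb. Of the 871 short genes, 113 were lower and 5 higher at an unadjusted p under 0.05. At CT10 these medians were 0.02, 0.03, 0.0031 and −0.01. Ribosomal protein genes had like values at CT22. The median was −0.21 for the cytosolic ones (79 of 81 negative) and −0.15 for the mitochondrial ones (67 of 76 negative).

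**Figure D4:**
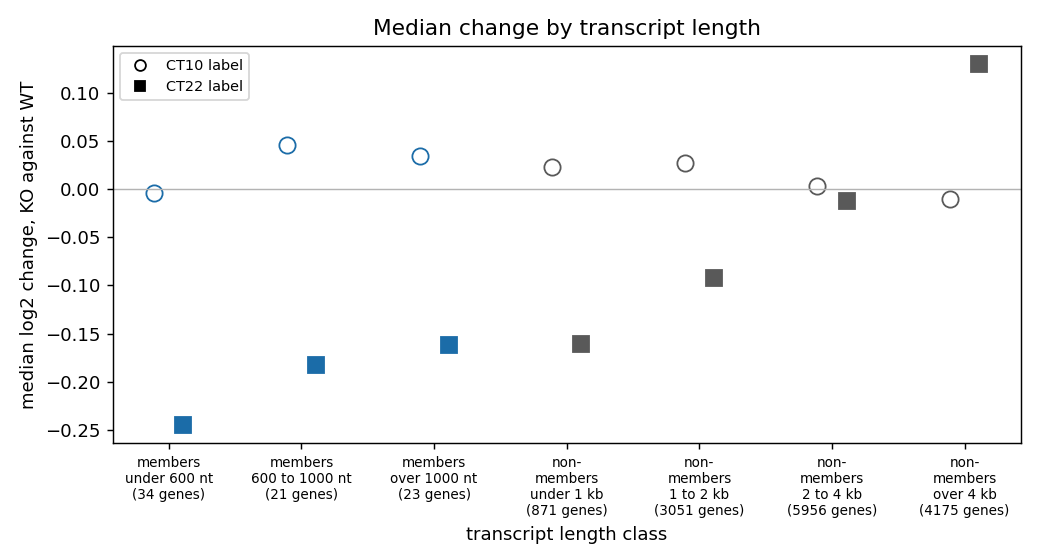
Median KO against WT log2 change by transcript length class, for members (left, coloured) and for other tested genes (right, grey), at the labels CT10 (open circles) and CT22 (filled squares). At CT22 the medians of the other genes run from −0.16 under 1 kb to 0.13 over 4 kb, and those of the members from −0.24 to −0.16.

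The length gradient of a library, the mean log2 level of genes over 4 kb minus that of non-member genes under 1 kb, was −0.32 in WT CT22 replicate 3, −0.31 in KO CT10 replicate 2 and 0.25 in KO CT22 replicate 1. Over the 12 libraries the level of the members and this gradient had a Pearson r of −0.982 and a Spearman rho of −0.944, and r was −0.95 over the 10 libraries left without WT CT22 replicate 3 and KO CT10 replicate 2. Both quantities come from the same scaled libraries, and no p is given. With the gradient as a covariate, an alternative added after seeing the data, the median log2 difference was −0.0037 at CT22 with 40 of 78 members negative and 3 at an unadjusted p under 0.05. It was −0.02 over both labels with 48 negative, −0.02 at CT10 and 0.02 for the difference between the labels. Members at an unadjusted p under 0.05, in either direction, were then 4 over both labels and 3 for the difference. At CT10 they were 6 with the covariate and 0 without it. The share of all genes at that p was not computed with the covariate. By complex the medians at CT22 were then 0.0016 for I, −0.09 for II, −0.03 for III, 0.02 for IV and −0.04 for V. The gradient was 0.10, −0.12 and −0.32 in WT CT22 and 0.25, 0.02 and 0.17 in KO CT22, so the covariate and the genotype overlap in part, and a change of short transcripts by genotype and a technical difference between libraries cannot be told apart at CT22.

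**Figure D5:**
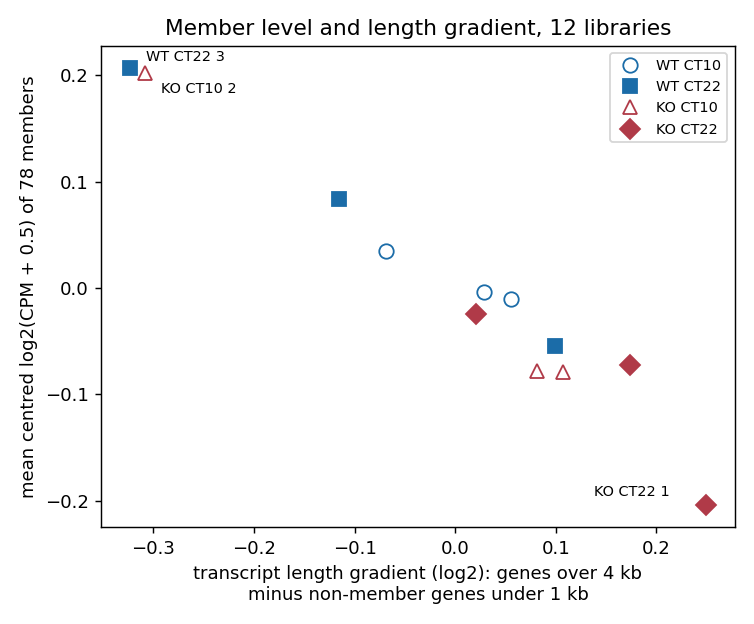
Mean centred log2(CPM + 0.5) of the 78 tested members against the transcript length gradient of the library, 1 point per library, by group. The points fall along a single line (r = −0.982), with WT CT22 replicate 3 and KO CT10 replicate 2 at one end and KO CT22 replicate 1 at the other.

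Markers of other cell types also had unequal levels at CT22. All 6 oligodendrocyte markers were lower in KO (median log2 difference −0.26), with a summed level of 5548 to 7061 CPM in WT CT22 against 3378 to 6170.0 CPM in KO CT22, and 6 of 7 microglia markers were lower (median −0.22; 327 to 379 against 300.4 to 329 CPM). The mean centred log2 level of the oligodendrocyte markers was −0.78, 0.10 and 0.05 in KO CT22 and −0.10, 0.20 and 0.19 in WT CT22, so the low value belongs to KO CT22 replicate 1 alone. For microglia it was −0.15, −0.03 and −0.24 in KO CT22 and −0.05, 0.11 and 0.11 in WT CT22, with overlap. No marker of either list was at 0, and none of them passed the adjusted threshold. Their part in the values of the subunits was not tested. All 11 choroid plexus markers were higher in KO at CT22 (median 1.26, 0 with an unadjusted p under 0.05 in edgeR), but their mean centred level was −1.40, 0.18 and 2.44 in KO CT22 and −0.92, −0.77 and 0.93 in WT CT22. The direction thus rests on KO CT22 replicate 3. With their level as a covariate the members' median at CT22 was −0.20. Markers of neighbouring tissue were higher in KO at CT22 in 7 of 9 meningeal genes (median 0.82), 6 of 7 thalamic genes (median 0.30) and 6 of 6 striatal genes (median 0.57). KO CT22 replicate 3 was the highest of the 12 libraries in these 3 lists too (0.97, 0.86 and 1.26). Endothelial markers were lower in 4 of 5 genes (median −0.20), and the 5 general neuronal markers had a median of −0.02. The mean centred level of the hippocampal excitatory markers was 0.21, 0.11 and −0.34 in KO CT22 and −0.25, 0.14 and −0.05 in WT CT22. KO CT22 replicate 3 was the lowest of the 12 libraries in that list and replicate 1 the highest. For the interneuron markers it was −0.46, 0.08 and 0.28 in KO CT22 and 0.33, 0.01 and 0.06 in WT CT22. Of the 7 astrocyte markers 5 were lower at CT22 (median −0.05). S100b, a calcium-binding protein of astrocytes, had the smallest p of them, with 123 ± 8.05 CPM in WT over both labels against 92.9 ± 10.1 CPM in KO (SD, n = 6 each; log2 difference −0.41, SE 0.07, edgeR adjusted p = 0.0696). In bulk tissue, fewer cells of a type and less RNA per cell cannot be told apart.

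The assembly factors of complexes I, IV and V and the genes of fuel metabolism were mostly negative with small medians, those of complexes II and III were not, and none passed the adjusted threshold in KO against WT over both labels in edgeR. Of the 11 assembly factors of complex I, 9 were negative (median −0.04), of the 16 of complex IV 11 (median −0.05), of the 19 genes of the citric acid cycle and pyruvate dehydrogenase 17 (median −0.04), and of the 17 glycolysis genes 15 (median −0.04). At an unadjusted p under 0.05 there were 0 genes in complex I assembly, 1 in complex IV assembly, 3 in the citric acid cycle and 1 in glycolysis, all lower, where 2.89% of all genes were lower. At CT22 the medians of these lists were −0.07, −0.20, −0.11 and −0.12, with 9, 11, 16 and 17 genes negative, where 49.4% of all genes were. For the difference between the labels all 17 glycolysis genes were negative, where 50.1% of all genes were. Their median there was −0.18, near the −0.20 of the members. Of the 21 mitochondrial carriers and electron carriers 18 were negative (median −0.04), of the 26 genes of protein import, fission and fusion 21 (median −0.04), and of the 12 genes of superoxide and peroxide defence 9 (median −0.07). The assembly factors of complexes II, III and V were negative in 1 of 3, 2 of 4 and 6 of 7 genes. Usmg5, a small protein of the ATP synthase, was at 109.6 ± 9.05 CPM in WT against 96.4 ± 8.51 CPM in KO (SD, n = 6 each; log2 difference −0.19, SE 0.07, edgeR adjusted p = 0.705). Cytochrome c (Cycs), which shuttles electrons between complexes III and IV, was at 145 ± 7.48 CPM in WT against 131 ± 8.86 CPM in KO (log2 difference −0.14, SE 0.06, edgeR adjusted p = 0.73). Suclg2, of the citric acid cycle, differed by −0.21 (SE 0.08, edgeR adjusted p = 0.703), and Aldoc, a glycolytic enzyme of astrocytes, by −0.20 (SE 0.06, edgeR adjusted p = 0.573). Higd1a, an assembly factor of complex IV, differed by −0.17 (SE 0.07, edgeR adjusted p = 0.752).

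The 19 regulators of mitochondrial transcription and biogenesis lay on both sides of 0, with 8 negative over both labels (median 0.0066) and 7 negative at CT22 (median 0.05). The deacetylase Sirt3 had the smallest p of the list and was the only one of its genes with an unadjusted p under 0.05 over both labels, at 65.0 ± 4.25 CPM in WT against 57.9 ± 5.74 CPM in KO (SD, n = 6 each; log2 difference −0.17, SE 0.06, edgeR adjusted p = 0.703). Over both labels the log2 difference was 0.08 for the coactivator Ppargc1a (SE 0.10), 0.13 for Nrf1 (SE 0.08), 0.0083 for the nuclear receptor Esrra (SE 0.09), 0.05 for the ETS factor Gabpa (SE 0.07) and −0.10 for the mitochondrial transcription factor Tfam (SE 0.08). The edgeR adjusted p of these 5 lay between 0.815 and 0.992.

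Within isoform families the same gene held the largest share of counts in the WT mean and in the KO mean: Atp5g3, Cox6a1, Cox6b1, Cox7a2l, Cox7b and Cox8a. Per length the order within the Cox7a family turned: Cox7a2 held 56.4% of the TPM of the family in WT and 53.7% in KO, and Cox7a2l 42.8% and 45.2%. The c subunit of the ATP synthase rotor comes from 3 genes that encode the same mature protein. How far their reads can be told apart was not examined here. Atp5g3 made up 48.8% ± 0.741 of their counts in WT and 48.7% ± 2.34 in KO, Atp5g1 31.0% ± 0.905 and 30.7% ± 2.05, and Atp5g2 20.2% ± 1.24 and 20.7% ± 0.713 (SD, n = 6 each). The exact two-sided permutation test over the 924 splits of 6 against 6 libraries gave p = 0.907, 0.716 and 0.548. Cox6a2 was 1.45% ± 0.283 of the Cox6a counts in WT and 1.92% ± 0.413 in KO, on 27 counts or more per library. That difference of 0.468 percentage points had an exact permutation p = 0.0433, and 0.26 after Benjamini-Hochberg adjustment over the 6 shares tested. These splits exchange libraries across the CT labels. The mean level of Cox6a2 was 3.755 CPM in WT against 5.364 CPM in KO at CT10, and 4.477 against 4.468 CPM at CT22. Cox7a2 differed by −2.56 percentage points against Cox7a2l (exact permutation p = 0.18, adjusted 0.36). Cox8a, Cox7b and Cox6b1 made up at least 99.68%, 99.63% and 98.04% of the counts of their families in each library, and Cox7a1 at most 0.583%.

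Most members are represented by a single transcript, and a few have more. Ndufv3, whose transcripts are known to encode a short and a long form of a complex I subunit, was read mainly as its 487 nt transcript, which held 89.7% ± 0.993 of the TPM of the gene in WT and 88.6% ± 1.91 in KO (SD, n = 6 each). In Ndufs6 the 567 nt transcript held 5.53% ± 0.839 in WT and 3.6% ± 1.8 in KO. In Ndufs1 the main transcript of 2665 nt held 58.4% ± 2.65 in WT and 61.7% ± 5.72 in KO. The ranges over libraries were 86.1% to 90.8% for the Ndufv3 transcript, 1.97% to 6.72% for that of Ndufs6 and 53.8% to 69.8% for that of Ndufs1. These shares were not tested between genotypes.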

How the data were processed

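Polyadenylated RNA of 12 mouse hippocampus libraries was sequenced. Per the file headers, the authors deposited for each library estimated counts and TPM per RefSeq transcript, and 1 table with the log2 ratio, p-value and adjusted p-value of KO over WT. The submitters' processing notes name FastQC, TopHat 1.3.3, RSEM 1.2.5, edgeR 3.0.6 and the build mm10, with no role or order. Here the deposited counts and TPM were summed over the transcripts of a gene symbol, and the counts were rounded to whole numbers. Genes were filtered by edgeR's filterByExpr (minimum count 10), scaled by TMM and fitted with edgeR 4.0.16 (R 4.3.3) as 4 group means over the 12 libraries, with 8 residual degrees of freedom and a biological coefficient of variation of 12.3%. Quasi-likelihood p-values were adjusted by Benjamini-Hochberg over all 14131 genes, with a threshold of 0.05. DESeq2 1.42.0, other scalings, filters, a replicate block, each library left out and 2 alternatives added after seeing the data were tried. The fit was also run on simulated counts, drawn for each gene on its own. That run does not cover genes that vary together between libraries, as the members do. Library totals were 4435596 to 10911031 counts, and the members together held 0.9891% to 1.2906% of a library.

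The members and gene lists were chosen with earlier results of these data known. The rule for named genes took core or catalytic subunits and paralog sets, in each complex the 3 members with the smallest unadjusted p, the highest and lowest member by TPM, and the 2 genes of each other list with the smallest p. The text gives those that each comparison turns on, and 1 of them is not reported here. Members described for non-overlapping groups, or for the lowest or highest correlation, were chosen after their values were seen. Sets of genes were not tested.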

Additional observations from a re-analysis of the deposited data

How the results depend on the processing

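No member passed an adjusted p of 0.05 under any alternative run. Over all genes, edgeR and DESeq2 called 3 and 22 genes over both labels, 1 and 3 at CT10, 2 and 30 at CT22, and 0 and 4 between the labels in WT. Without the low count filter edgeR called 10 genes over both labels, and with only the compared libraries 4 at CT10, 1 at CT22 and 2 between the labels in WT. With the transcript length gradient as a covariate, added after seeing the data, the members' median was −0.0037 at CT22, 0.0217 for the difference between the labels and −0.0087 for CT22 against CT10 in KO. With it, values changed sign over both labels for Atp5a1 (0.0039), Atp5g1 (0.0127), Atp5g2 (0.0086), Ndufv1 (0.0491) and Uqcrc1 (0.0172), at CT10 for Sdhb (−0.0182), and at CT22 for Atp5g1 (0.0483), Cox5a (0.1885), Cox6a2 (0.0453), Ndufv1 (0.0256) and Uqcr11 (0.0091). Uqcr11 also did for the difference between the labels (0.0591) and Sdhd between the labels in WT (−0.0127). Without KO CT10 replicate 3 and KO CT22 replicate 1 together, at CT22 Cox5a was 0.0231 and Cox6a2 0.166. The cause was not tested.

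With 1 library left out at a time, the members' median ranged from −0.1379 to −0.0621 over both labels, −0.0824 to 0.0816 at CT10, −0.2681 to −0.1254 at CT22, −0.2758 to −0.1025 for the difference, 0.0050 to 0.1417 between the labels in WT and −0.1996 to −0.0359 in KO. Single genes that changed sign ranged over both labels from −0.0438 to 0.0006 (Atp5a1), −0.0716 to 0.031 (Ndufv1), −0.0725 to 0.0129 (Uqcrc1), −0.05 to 0.0016 (Cyc1) and −0.018 to 0.0853 (Cox5a). At CT10 they ranged from −0.1037 to 0.0715 (Sdhb), −0.03 to 0.1881 (Atp5o) and −0.0004 to 0.2333 (Uqcrh), and at CT22 from −0.1492 to 0.0361 (Cox5a) and −0.3065 to 0.1651 (Cox6a2). Sdhd ranged from −0.0324 to 0.0874 between the labels in WT. The KO minus WT shares ranged from −0.911 to 0.165 percentage points for Atp5g1, −0.0233 to 0.621 for Atp5g2 and −0.786 to 0.615 for Atp5g3.

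The labels number the replicates alike in each group and do not say whether the numbers pair the samples. Same-numbered libraries deviated from their group means with correlations of −0.195 to 0.144. Differently numbered libraries were not compared in this way, so these values cannot settle whether samples are paired. With the replicate block the medians were −0.0886 over both labels, 0.0142 at CT10, −0.1942 at CT22 and −0.1936 for the difference, and no call of a member changed. Over all genes the block lowered the calls from 3 to 1 over both labels and from 2 to 1 at CT22. Depth limits Cox6b2, Cox7a1, Cox7b2, Cox8b and Cox8c, whose counts were at most 28 in a library.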
